A study of Mus musculus with 14 samples.

Results

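The genes described here act on the sperm side of sperm-egg fusion: Izumo1, Spaca6, Tmem81, Tmem95, Dcst1 and Dcst2. Members were the rows of the deposited expression table whose gene symbol equalled one of these 6 listed symbols. Of the 25965 gene symbols in the table, 4 were members: Izumo1, Tmem81, Tmem95 and Dcst1. Spaca6 had no row under that symbol. RefSeq gives Ncrna00085 as an older symbol of Spaca6, and the row Ncrna00085 lies inside the annotated Spaca6 gene, so its values are given beside the members as Spaca6 and are not counted among them. Dcst2 was not analysed here.

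The data were RNA sequencing levels in 14 libraries from male mice of 2 genotypes, Tsga8+/Y (control) and Tsga8-/Y (knockout of Tsga8, an X-linked gene of the testis). Whole testis of adult mice gave 3 control and 3 knockout libraries. Laser capture microdissection, which cuts chosen cells out of a tissue section under a microscope, gave 8 libraries of tissue enriched for spermatids, the haploid cells that become sperm. The first captured region was enriched for round spermatids of steps 4 to 8, with 2 control and 2 knockout libraries. The second mixed elongated spermatids (steps 9 to 16) and early round spermatids (steps 1 to 3), again with 2 control and 2 knockout libraries. The submitters' design names 2 or 3 animals as replicates, and the labels do not tie the captured regions to animals, so p-values measure the spread between libraries. The sources used here do not give strain, exact age or the construction of the deletion.

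Fusion of sperm and egg begins once the acrosome, the secretory cap of the sperm head, has been released. IZUMO1, an immunoglobulin-domain protein that is then exposed on the sperm head, binds the egg receptor JUNO (gene Izumo1r). SPACA6, also of the immunoglobulin type, and TMEM81 act with IZUMO1, and TMEM95 is a further sperm membrane protein that binds the egg. DCST1 and DCST2 are membrane proteins of the DC-STAMP family, whose founding members act in the fusion of osteoclasts and macrophages. In mouse, sperm lacking one of these proteins reach the egg membrane and fail to fuse. The transcripts are made in the testis by spermatids, well before the proteins act.

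The coordinates below are those of mm10 (GRCm38), and the rows of the 4 members began where the GENCODE M21 gene models begin. Izumo1 lies on the plus strand at chr7:45621811-45628823 with 11 merged exons. Tmem81 lies on the plus strand at chr1:132506230-132508637 with 2 merged exons. Tmem95, the most compact member at 1335 bp, lies on the minus strand at chr11:69876684-69878018. Dcst1 lies on the minus strand at chr3:89350219-89365253 and has 13 merged exons. The Spaca6 row spans chr17:17830719-17843009 on the plus strand, inside a GENCODE gene that runs from 17827158 to 17843009.

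Some of these spans are shared with another gene, which bears on what a read count there holds. The last 1336 bp of the Izumo1 span (19.1% of it) overlap Rasip1 on the same strand, a gene of blood vessels, and 654 bp of exon are common to both. Rasip1 had 179 to 275 reads in the testis libraries, where Izumo1 had 2210 to 3931. In captured tissue it had from 0 reads, in a knockout library of steps 4 to 8 with 7364 Izumo1 reads, to 359 reads, in a control library of steps 4 to 8 with 6104 Izumo1 reads. Dcst1 and Dcst2 lie head to head on opposite strands, with RefSeq starts 66 bp apart, and in GENCODE the Dcst2 gene covers 3279 bp of the Dcst1 span with no overlap of exons. The sources used here do not say whether the authors' counting used strand. The labels' protocols name a directional kit for whole testis and SMART-seq2, not named as directional, for captured tissue. Captured Dcst1 values could therefore hold reads of Dcst2, and so could whole testis values if the counting ignored strand.

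The promoter windows of the 4 members are shown because their levels across spermatid steps are compared below, and the start sites differ in the strings they hold. Each window holds 250 bases before to 50 bases after the RefSeq start (GRCm38.p6), written 5′ to 3′ on the gene's strand. Capitals mark matches, on either strand, to 6 strings of letters: the full cyclic AMP response element (CRE, TGACGTCA), its leading bases TGACG, the TATA box TATAAA, the CCAAT box CCAAT, the GC box GGGCGG and the X-box core GTTGCC. The windows are chr7:45621561-45621860 (plus) for Izumo1, chr1:132505980-132506279 (plus) for Tmem81, chr11:69878006-69878305 (minus) for Tmem95 and chr3:89365204-89365503 (minus) for Dcst1.
Izumo1: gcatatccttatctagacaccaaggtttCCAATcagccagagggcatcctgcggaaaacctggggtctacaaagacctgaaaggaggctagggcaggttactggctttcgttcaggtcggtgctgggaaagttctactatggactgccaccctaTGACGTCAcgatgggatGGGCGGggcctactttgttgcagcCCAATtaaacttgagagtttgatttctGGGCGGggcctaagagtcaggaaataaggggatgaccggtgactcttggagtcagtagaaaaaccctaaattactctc
Tmem81: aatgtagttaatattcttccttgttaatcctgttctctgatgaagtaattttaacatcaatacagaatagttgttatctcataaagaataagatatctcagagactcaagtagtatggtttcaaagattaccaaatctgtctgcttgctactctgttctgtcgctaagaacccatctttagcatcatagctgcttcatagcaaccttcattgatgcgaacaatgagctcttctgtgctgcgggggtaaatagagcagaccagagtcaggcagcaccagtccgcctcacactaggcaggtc
Tmem95: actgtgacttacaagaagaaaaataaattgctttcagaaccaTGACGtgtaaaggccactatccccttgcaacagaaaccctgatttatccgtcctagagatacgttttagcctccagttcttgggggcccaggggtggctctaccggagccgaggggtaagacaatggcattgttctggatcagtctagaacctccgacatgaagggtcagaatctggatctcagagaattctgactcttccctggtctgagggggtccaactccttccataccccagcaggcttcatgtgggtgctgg
Dcst1: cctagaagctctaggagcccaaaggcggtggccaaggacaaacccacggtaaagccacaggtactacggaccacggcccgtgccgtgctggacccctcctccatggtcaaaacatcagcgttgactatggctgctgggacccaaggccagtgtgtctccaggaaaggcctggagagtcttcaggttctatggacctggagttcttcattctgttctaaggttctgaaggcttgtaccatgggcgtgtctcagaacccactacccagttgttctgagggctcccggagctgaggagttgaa

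Izumo1 was the only one of these windows with the full CRE, the string bound by the CREB and CREM family of factors, of which CREM is known as a regulator of spermatid genes in mouse. It stood 96 bases before the start. The full CRE occurred in 1.79% of 32851 RefSeq promoter windows of the same length, and TGACG, which lies inside it, in 20.8%. The Izumo1 window also had CCAAT at positions -222 and -55 and GGGCGG at -79 and -28, strings present in 37.4% and 35.7% of all windows. The Tmem95 window had TGACG alone, at -208. The Tmem81 and Dcst1 windows held none of the 6 strings, and no member had TATAAA, which 13.6% of all windows had. The Spaca6 window, not printed, had GTTGCC on its minus strand at -53, a string in 12.5% of all windows. The Dcst1 window shares 165 bases with that of Dcst2, so part of it belongs to both genes. GC content was 40.7% for Tmem81 to 56.3% for Dcst1, against a median of 52.7% over all windows (quartiles 45.7% and 61.7%).

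Levels are RPKM, reads per kilobase scaled to library depth, where the authors' length was the whole gene span with introns. Between 30388500 and 49147300 reads stood behind the scale in whole testis and between 23467200 and 72022300 in captured tissue. The knockout showed in the targeted gene: Tsga8 was at 106, 88.6 and 104 RPKM in the control testes and at 2.62, 2.12 and 3.20 in the knockout testes, a log2 difference of -4.79 ± 0.13 (SE; adjusted p = 3.05e-06, limma). In captured tissue Tsga8 was at 56.9 to 239 RPKM in controls and 2.18 to 9.42 in knockouts. All 7 round spermatid markers and all 8 elongating spermatid markers had rows, and none was without reads across the captured libraries.

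The control library 1 of steps 1 to 3 and 9 to 16 stood apart from the other 7 captured libraries, in measures that include the fusion genes themselves. It was the shallowest, and its 10 most abundant genes took 10.5% of reads, against 3.92% to 6.64% in the others. Prm1 and Prm2, the protamine genes that package DNA in elongating spermatids, took 2.01% and 2.95% of its reads, against at most 0.441% and 1.31% elsewhere. The summed level of the 4 members was 1.51 RPKM there, against 15.9 to 58.9 RPKM in the other captured libraries. The differences that rest on it are given with and without this library below.

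In whole testis every fusion gene was well expressed in both genotypes, and none of the 4 members passed the test between genotypes. The limma fit on log2(RPKM + 1) called 501 of 8146 tested genes at an adjusted p under 0.05, which is 6.15%, and a count of 0 of 4 says little beside that share. Izumo1 came nearest. It was at 11.04, 10.5 and 9.51 RPKM in controls and at 12.1, 12.6 and 11.7 RPKM in knockouts. All 3 knockout libraries lay above all 3 controls, as they did for 24.6% of all tested genes. The difference was 0.21 ± 0.08 on the log2 scale (SE; 95% interval 0.02 to 0.40; unadjusted p = 0.0336, adjusted p = 0.14), beside a median of 0.09 over all tested genes. With each library scaled to a common sum or quantile normalised, the 2 genotypes overlapped. With median centring the knockouts still lay wholly above the controls, as they did for 12.7% of all tested genes.

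The partners of IZUMO1 had nearly equal means in the 2 genotypes. Tmem81 was at 9.98, 8.17 and 7.27 RPKM in controls and at 9.33, 8.15 and 8.60 RPKM in knockouts. The knockout values lay within the control range, and the log2 difference was 0.04 ± 0.11 (adjusted p = 0.823). Spaca6 was at 3.60, 3.03 and 2.51 RPKM in controls and at 3.65, 2.98 and 2.90 RPKM in knockouts. Its ranges overlapped too, with a difference of 0.05 ± 0.12 (adjusted p = 0.787). The 95% intervals, -0.22 to 0.31 for Tmem81 and -0.22 to 0.32 for Spaca6, bound the difference in either direction.

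Tmem95 and Dcst1 completed the set. Tmem95, whose short span collected only 179 to 264 reads per testis library, was at 5.79, 4.02 and 4.04 RPKM in controls and at 5.70, 3.29 and 5.04 RPKM in knockouts. Its difference was 0.004 ± 0.18 with a 95% interval of -0.42 to 0.43 (adjusted p = 0.989), the widest interval of the set. Dcst1 was at 6.19, 5.30 and 5.24 RPKM in controls and at 5.39, 5.24 and 5.19 RPKM in knockouts. Its difference was -0.07 ± 0.08 (95% interval -0.25 to 0.12; adjusted p = 0.60). The Dcst1 groups overlapped as deposited, and the knockouts lay wholly below the controls with median centring and with quantile normalisation. In bulk tissue, fewer cells of a type and less RNA per cell cannot be told apart.

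**Figure D1:**
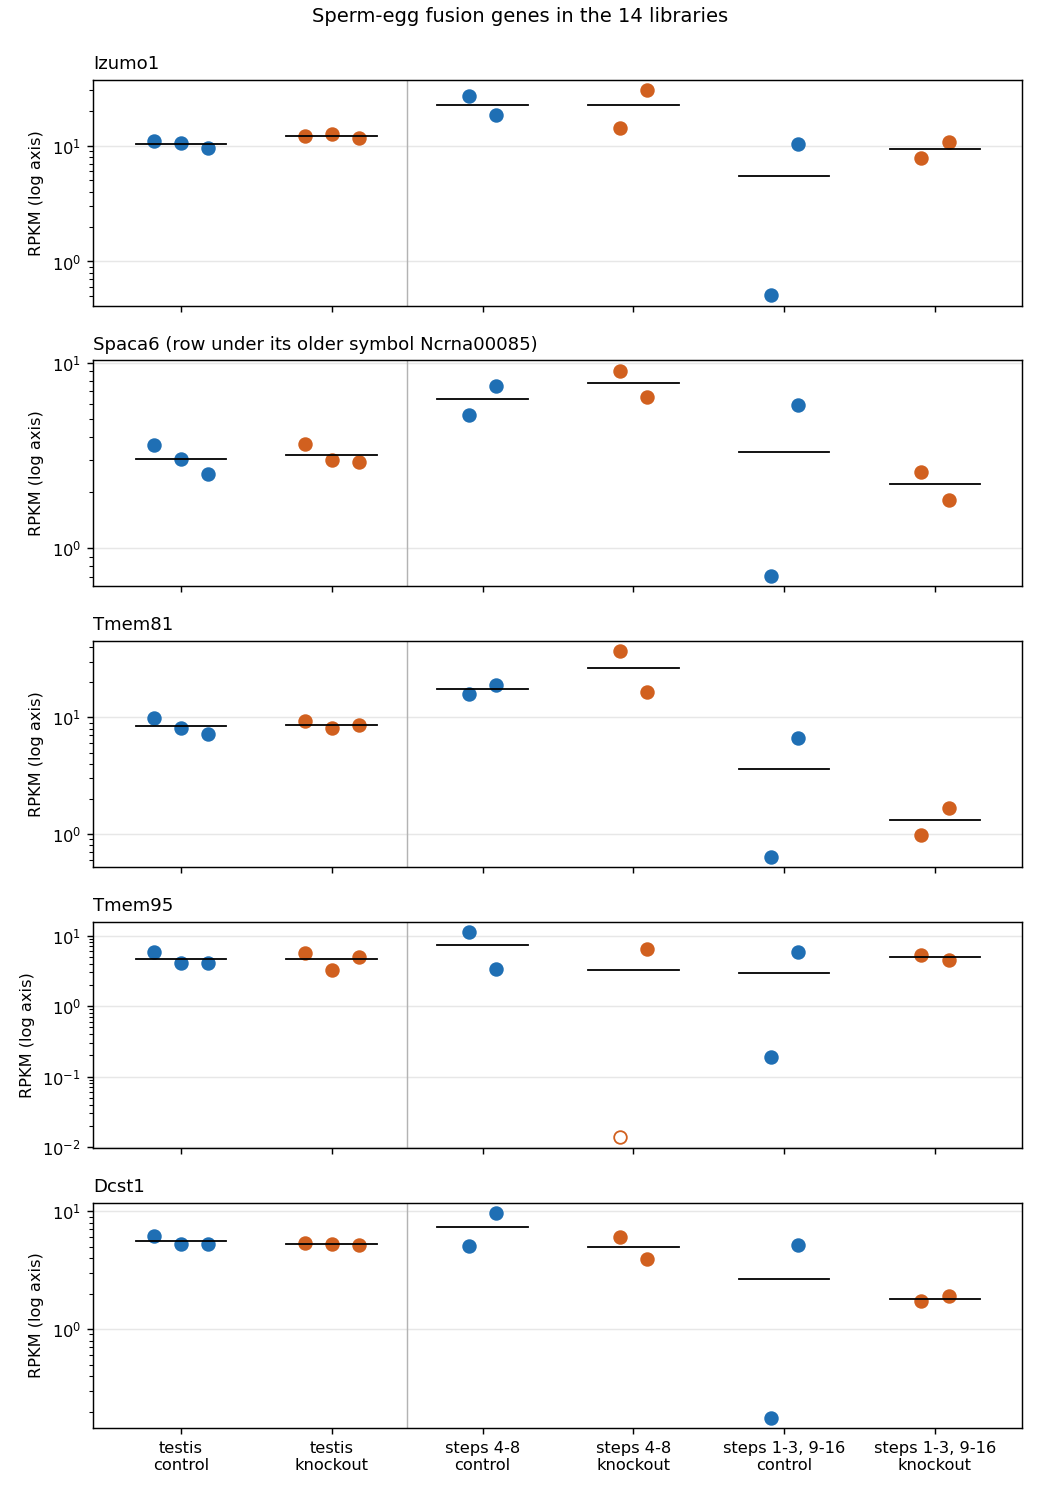
RPKM of each fusion gene (log axis) in the 14 libraries, control blue and knockout orange, 1 panel per gene, with a black line at each group mean and an open circle for the library with 0 reads of Tmem95. In whole testis the genotypes overlap except for Izumo1 (9.51 to 11.04 RPKM in controls, 11.7 to 12.6 in knockouts), and in captured tissue control library 1 of steps 1 to 3 and 9 to 16 is the lowest of its region for every gene.

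By mean, cell type markers were not level between the whole testis groups. Of all tested genes, 5642 of 8146 had a positive log2 difference, knockout minus control. All 7 round spermatid markers had a higher mean in the knockout, with summed levels of 386 to 537 RPKM against 356 to 414 RPKM in controls. Of the 8 elongating spermatid markers, 1 had a higher mean in the knockout, with summed levels of 6453 to 8990 RPKM against 7746 to 12621 RPKM. For Sertoli cells, the nurse cells of the tubule, 8 of 10 markers had a higher mean in the knockout, at 183 to 247 RPKM summed against 123 to 179 RPKM. All 5 Leydig, 5 macrophage, 4 endothelial and 3 peritubular markers also had a higher mean in the knockout, with the Leydig sum at 63.9 to 352 RPKM against 85.1 to 141 RPKM in controls. Of the spermatocyte markers 1 of 6 had a higher mean in the knockout, and of the spermatogonial markers 3 of 6. Higher with no overlap were 3 Sertoli, 2 endothelial, 1 peritubular and 1 spermatocyte markers, beside 24.6% of all tested genes. Lower with no overlap were 2 elongating spermatid and 2 spermatogonial markers, beside 671 of 8146 tested genes. No round spermatid, Leydig or macrophage marker lay apart in either direction. No marker of these lists was without reads in all testis libraries. Their part in the Izumo1 values was not tested.

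Compared per kilobase of exon, so that genes of unlike intron content can be set side by side, Izumo1 was the most abundant fusion transcript in testis. Its level was 24.2 ± 1.81 depth-scaled reads per exon kilobase in controls (SD, n = 3). Dcst1 followed at 16.0 ± 1.52, and the 2 ranges did not overlap. Tmem95 came next at 11.6 ± 2.55, below the range of Dcst1, and Tmem81 was at 10.1 ± 1.65 with a range that overlapped that of Tmem95. Spaca6 was lowest at 5.43 ± 0.97, below the range of each of the others. Exon length was that of the merged exons of all GENCODE transcripts in the span. It was 2.99 kb for Izumo1, 5.24 for Dcst1, 0.531 for Tmem95, 2.02 for Tmem81 and 6.90 for Spaca6, so the order depends on the annotation. By RPKM over the span, control means were 10.3 for Izumo1, 8.47 for Tmem81, 5.58 for Dcst1, 4.62 for Tmem95 and 3.05 for Spaca6. The exon scale takes all reads of the span as exonic, which the sources used here do not state.

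In knockout testis the order by mean was the same, with Izumo1 at 28.4 ± 0.97, Dcst1 at 15.1 ± 0.31, Tmem95 at 11.8 ± 3.13, Tmem81 at 10.4 ± 0.71 and Spaca6 at 5.66 ± 0.73 depth-scaled reads per exon kilobase (SD, n = 3). In the control libraries of steps 4 to 8, Izumo1 was again first, at 43.4 and 62.5. Dcst1 (14.5 and 27.8), Tmem81 (19.1 and 22.6) and Tmem95 (8.34 and 28.1) overlapped there, so the order behind Izumo1 was not resolved. In the knockout libraries of that region Izumo1 (33.5 and 70.8) overlapped Tmem81 (44.0 and 19.6), which was above it in library 1. Set among all genes by RPKM, the control testes placed Izumo1 between the 94.1 and 94.7 percentile and Spaca6 between the 82.6 and 85.6 percentile.

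In captured spermatids of steps 4 to 8, no fusion gene passed the test between genotypes. Of 7857 tested genes the fit called 0 (0%), 285 having an unadjusted p under 0.05. On recovered reads, limma-voom called 0 of 22007, 780 of them under that unadjusted p. Izumo1 was at 26.7 and 18.5 RPKM in controls and at 14.3 and 30.2 RPKM in knockouts. The knockout libraries lay on either side of the controls, and the log2 difference was -0.09 ± 0.84 (95% interval -1.99 to 1.81). None of the 4 members had groups that did not overlap, while 29% of all tested genes did.

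Tmem81 was at 16.0 and 18.9 RPKM in controls and at 36.9 and 16.4 RPKM in knockouts, so 1 knockout library was well above the rest. Its difference was 0.48 ± 0.71. Spaca6 was at 5.22 and 7.50 RPKM in controls and at 9.04 and 6.54 RPKM in knockouts, a difference of 0.26 ± 0.62. Dcst1 was at 5.04 and 9.67 RPKM in controls and at 6.05 and 3.96 RPKM in knockouts. Its difference was -0.44 ± 0.70, and the adjusted p was 1.00 for each of the 5 genes.

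Of the 5 genes, Tmem95 had the largest difference by size in that region, and 1 library made it. It was at 11.2 and 3.32 RPKM in controls, at 6.48 RPKM in knockout library 2 and at 0 reads in knockout library 1. A count of 0 there allows up to 3 reads, or 0.0457 RPKM, for counting error only. The same library held 4935 reads of Izumo1 and 4369 of Tmem81. The difference was -1.40 ± 1.02 with it and 0.04 without it.

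In captured steps 1 to 3 and 9 to 16, again no fusion gene passed the test between genotypes. Of 7857 tested genes the fit called 0 (0%) and limma-voom 0, while 525 and 1007 genes had an unadjusted p under 0.05. Izumo1 was at 0.51 and 10.4 RPKM in controls and at 7.86 and 10.7 RPKM in knockouts. Only control library 1 was low, and the log2 difference of 1.30 ± 0.84 (adjusted p = 0.818) became -0.16 without it. No member had groups that did not overlap, against 35.7% of all tested genes.

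The other genes had the same low value in control library 1. Tmem81 was at 0.64 and 6.63 RPKM in controls and at 0.98 and 1.66 RPKM in knockouts. Its difference was -0.62 ± 0.71 with that library and -1.73 without it (adjusted p = 0.438). Spaca6 was at 0.71 and 5.91 RPKM in controls and at 2.59 and 1.82 RPKM in knockouts, a difference of -0.11 ± 0.62 that became -1.12 without the library. Against control library 2 alone, both genes were lower in the 2 knockout libraries. Control library 2 had the highest summed Leydig markers of the captured libraries, at 84.3 RPKM against 0.0926 to 24.2 RPKM. Its Sertoli sum (75.3 against 10.7 to 70.1 RPKM) and spermatogonial sum (3.69 against 0.441 to 1.82 RPKM) were also the highest. Its macrophage, endothelial, peritubular and spermatocyte sums were not. The part of other cells in its values was not tested.

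Dcst1 was at 0.18 and 5.15 RPKM in controls and at 1.72 and 1.90 RPKM in knockouts, where the replicates lay close. Its difference was 0.06 ± 0.70 with control library 1 and -1.13 without it. Tmem95 was at 0.19 and 5.76 RPKM in controls, from 6 and 377 reads, and at 5.37 and 4.46 RPKM in knockouts. Its difference was 1.05 ± 1.02 with the library and -0.20 without it. Without control library 1, the fit assumes that the lone control varies like the other groups, and no member passed the test. When the genotype differences of the 2 regions were set against each other, the fit called 0 of 7857 genes (0%) and limma-voom 0, while 223 and 650 genes had an unadjusted p under 0.05. The fusion genes each had an adjusted p of 1.00 there, from -1.10 ± 1.01 for Tmem81 to 2.45 ± 1.44 for Tmem95. These 2 were -2.21 and 1.20 without control library 1.

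**Figure D2:**
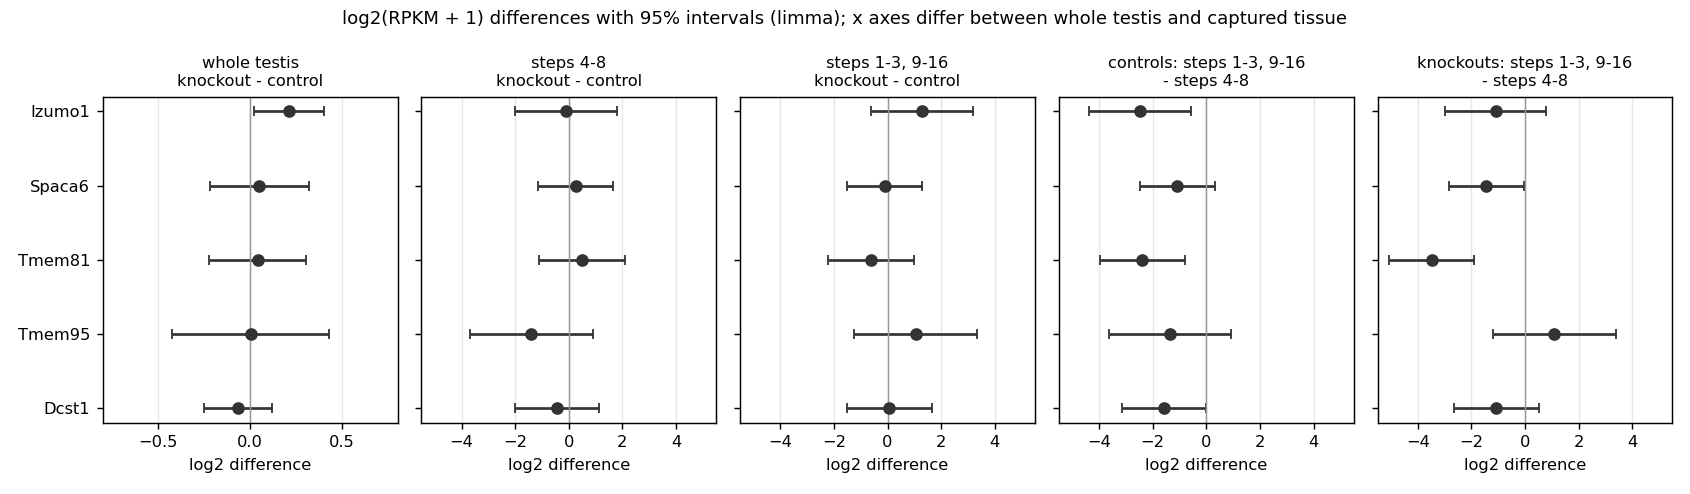
Differences in log2(RPKM + 1) with 95% intervals from limma for the 5 genes, 1 panel per comparison. The x axis of the whole testis panel covers a narrower range than that of the captured panels. Whole testis intervals are narrow (Dcst1 -0.25 to 0.12), captured ones span several log2 units (Izumo1 -1.99 to 1.81 in steps 4 to 8), and Tmem81 between regions in knockouts lies farthest from 0 at -3.49.

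Between the 2 captured regions no fusion gene passed the test in either genotype. By mean, all 4 members were lower in steps 1 to 3 and 9 to 16 in controls, and 3 of 4, all but Tmem95, in knockouts. Izumo1 averaged 22.6 RPKM in steps 4 to 8 and 5.47 RPKM in the other region, a ratio of 4.14. The log2 difference was -2.49 ± 0.84 (unadjusted p = 0.0158, adjusted p = 0.398). Tmem81 averaged 17.5 against 3.63 RPKM, with -2.38 ± 0.71 (unadjusted p = 0.0081, adjusted p = 0.395). For these 2 of 4 members the regions did not overlap, and 20.6% of all tested genes were lower with no overlap.

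The remaining genes had smaller differences in controls. Dcst1 had a difference of -1.58 ± 0.70 (adjusted p = 0.469), Tmem95 of -1.35 ± 1.02 (adjusted p = 0.655) and Spaca6 of -1.08 ± 0.62 (adjusted p = 0.557). Their control libraries overlapped between the regions. Of 7857 genes the fit called 0 (0%) and limma-voom 0, while 832 and 1306 genes had an unadjusted p under 0.05.

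Control library 1 of steps 1 to 3 and 9 to 16 carried much of the region difference in controls. Without it the differences were -1.03 for Izumo1, -1.27 for Tmem81, -0.38 for Dcst1, -0.10 for Tmem95 and -0.07 for Spaca6. Control library 2 of that region, at 10.4 RPKM of Izumo1 and 6.63 RPKM of Tmem81, still lay below both control libraries of steps 4 to 8 for these 2 members. Its Spaca6, Dcst1 and Tmem95 values lay within the range of the steps 4 to 8 controls.

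The knockout libraries, which do not include that library, gave the region comparison a further time. Their means and differences do not use it, but the SEs and p-values do. The spread behind those was estimated over all captured groups together. Tmem81 averaged 26.7 RPKM in steps 4 to 8 and 1.32 RPKM in steps 1 to 3 and 9 to 16, a ratio of 20.2. Its log2 difference was -3.49 ± 0.71 (95% interval -5.09 to -1.89; unadjusted p = 0.00076, adjusted p = 0.386), which did not pass. Izumo1 averaged 22.3 against 9.29 RPKM, with -1.10 ± 0.84 (adjusted p = 0.659), and Dcst1 5.0 against 1.81 RPKM, with -1.07 ± 0.70 (adjusted p = 0.618). For these 3 of 4 members the regions did not overlap, beside 20.9% of all tested genes that were lower with no overlap. Spaca6 averaged 7.79 against 2.21 RPKM, with -1.45 ± 0.62 (adjusted p = 0.480) and no overlap.

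Tmem95 was the exception in knockouts. It averaged 3.25 RPKM in steps 4 to 8 and 4.91 RPKM in the other region, a difference of 1.10 ± 1.02 (adjusted p = 0.716). Without the library that had 0 reads of it, the difference was -0.34. Among knockouts the fit called 0 of 7857 genes (0%) and limma-voom 0, while 816 and 2157 genes had an unadjusted p under 0.05.

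Round spermatid markers had lower values in steps 1 to 3 and 9 to 16, as most fusion genes had by mean. Of the 7 markers, 6 lay lower with no overlap in controls and 7 in knockouts, beside 20.6% and 20.9% of all tested genes. Their summed level was 703 to 771 RPKM in steps 4 to 8. In the other region it was 424 to 508 RPKM, apart from control library 1 at 707 RPKM. That library had the highest round spermatid sum of its region, but the lowest share of reads in these 7 markers. The share was 0.119%, against 0.154% to 0.208% in the others of that region. It also had the lowest value of every fusion gene there. In steps 4 to 8 the 8 elongating spermatid markers summed to 17526 to 20421 RPKM in controls. In knockouts of that region they summed to 9641 to 9819 RPKM. In the other region the sum was 12262 to 29207 RPKM, apart from control library 1 at 95732 RPKM. Between genotypes, 0 of these 8 markers had a higher mean in the knockout in either region. In steps 4 to 8, 6 lay lower with no overlap, and in the other region 5, beside 1072 and 1234 of 7857 tested genes. Of the 7 round spermatid markers, 6 and 5 had a higher mean in the knockout. No marker of the 2 lists was without reads in all captured libraries, and their part in the result was not tested.

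**Figure D3:**
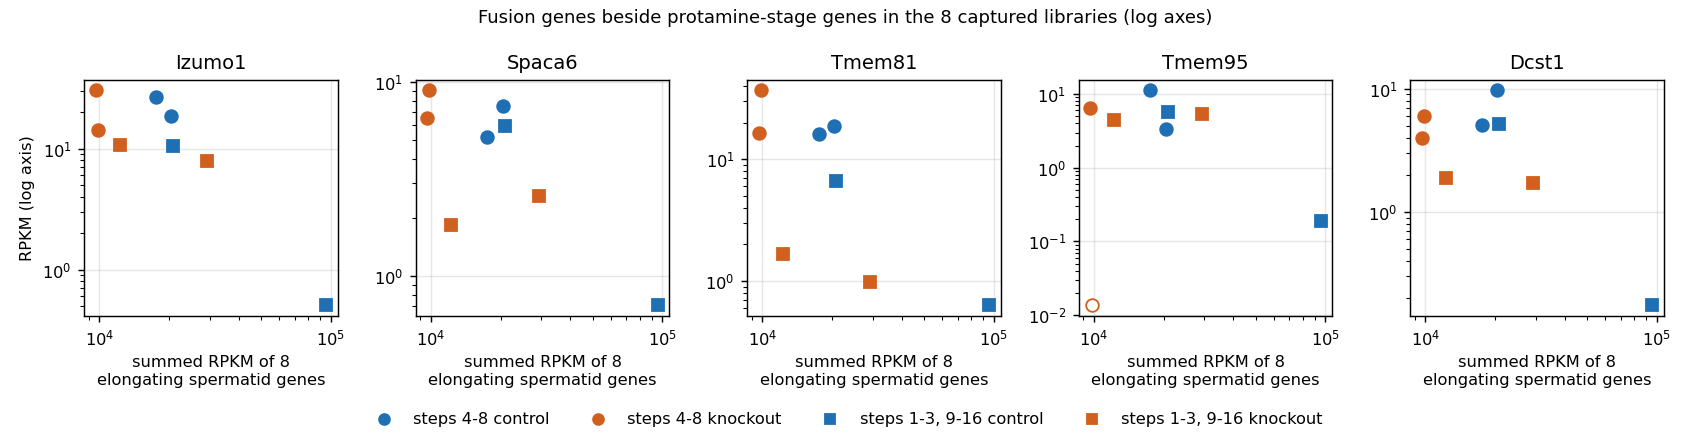
RPKM of each fusion gene (y, log axis) against the summed RPKM of 8 elongating spermatid genes (x, log axis) in the 8 captured libraries, circles for steps 4 to 8, squares for steps 1 to 3 and 9 to 16, blue for control, orange for knockout, open for 0 reads. Control library 1 of the second region sits alone at 95732 RPKM of the marker sum with Izumo1 at 0.51 RPKM, while the other squares have marker sums of 12262 to 29207 RPKM.

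The genes whose levels followed each fusion gene most closely were ranked by Pearson r over the 14 libraries, on log2(RPKM + 1) centred within each library kit, among 6478 genes tested in both tissues. For Izumo1 they were Got1l1 (r = 0.974), Arf4 (0.954) and Acrv1 (0.953), of which Acrv1 encodes an acrosomal protein of round spermatids. For Tmem81 they were St8sia3 (0.980), Slc38a9 (0.973) and B3gat2 (0.972). For Tmem95 they were Tmem107 (0.934), Tardbp (0.902) and Ddb1 (0.894). For Dcst1 they were Klf4 (0.985), Bbx (0.984) and Ppp1r15a (0.982), and for Spaca6 Ccdc81 (0.981), Ccdc27 (0.968) and Klf4 (0.967). Klf4 was thus near the top for both Dcst1 and Spaca6.

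These values are descriptions, since all genes share the same libraries, depths and group structure. Without control library 1 of steps 1 to 3 and 9 to 16, over 13 libraries, the Izumo1 values became 0.878 for Got1l1, 0.806 for Arf4 and 0.764 for Acrv1. The Tmem81 values were 0.980, 0.966 and 0.962 without it, so that the likeness of Tmem81 to its 3 genes rested less on that library. For the other fusion genes the values without it were 0.841 to 0.968.

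Other genes of the sperm head with reported or proposed parts in gamete contact, 14 in all, were taken as a companion list, which includes the Izumo relatives, Llcfc1 (row 1700034O15Rik), the gene of the sperm factor FIMP (row 4930451I11Rik), Eqtn (row 4930579C15Rik) and the acrosomal Spaca genes. All 14 were tested and none passed between genotypes in whole testis. Their median log2 difference was 0.22 beside 0.09 over all genes, 13 of 14 values were positive, and in 7 the knockouts lay wholly above the controls, where 24.6% of all tested genes did. Quantile normalised, the median was 0.05 and 9 values were positive. None then lay wholly above, where 13.1% of all tested genes did, and 2 lay wholly below. With a common sum 4 lay wholly above, beside 12.6% of all tested genes. With median centring 2 lay wholly above, beside 12.7%, and 1 lay wholly below.

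The 3 with the smallest p in whole testis were Tmem190, Spaca3 and Izumo4. Tmem190, which encodes a membrane protein of the inner acrosome, averaged 35.6 RPKM in knockouts and 28.0 in controls (log2 difference 0.34 ± 0.10, adjusted p = 0.078). Spaca3, an acrosomal lysozyme-like gene, averaged 12.6 against 9.50 RPKM (0.38 ± 0.11, adjusted p = 0.082). Izumo4, a relative of Izumo1, averaged 32.4 against 26.0 RPKM (0.30 ± 0.10, adjusted p = 0.10). Without control replicate 1, Tmem190 (0.41, adjusted p = 0.032) and Spaca3 (0.48, adjusted p = 0.022) passed, and without knockout replicate 1 Spaca3 did (0.45, adjusted p = 0.048). In those settings 1466 of 7936 and 1129 of 7982 tested genes passed, against 501 of 8146 in the main fit.

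In captured tissue none of the 14 companion genes passed any comparison. Between genotypes their median was 0.21 in steps 4 to 8, beside 0.01 over all genes, and 0.73 in steps 1 to 3 and 9 to 16, beside 0.04. Without control library 1 the latter was 0.07, with 8 values positive and 6 negative, against 14 positive with it. The smallest p in steps 4 to 8 belonged to Spesp1, a sperm equatorial segment gene (0.81 ± 0.54), Spaca1 (0.63 ± 0.64) and Glipr1l1 (0.48 ± 0.51), each with an adjusted p of 1.00. In the other region they belonged to Izumo3 (1.24 ± 0.57, adjusted p = 0.760), Glipr1l1 (0.93 ± 0.51, adjusted p = 0.806) and Spaca3 (1.59 ± 0.90, adjusted p = 0.807). The differences were 1.74 for Izumo3, 0.96 for Glipr1l1 and -0.004 for Spaca3 without control library 1.

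Between regions, the companion list had negative medians, as the members had. Its median was -1.42 in controls and -0.89 in knockouts, beside 0.04 and 0.08 over all genes, and 10 and 9 of 14 genes lay lower in steps 1 to 3 and 9 to 16 with no overlap, where 20.6% and 20.9% of all tested genes did. Without control library 1 the median in controls was -0.84. FIMP's gene averaged 164 RPKM in steps 4 to 8 and 39.3 RPKM in the other region in controls (-2.31 ± 0.72, adjusted p = 0.395), and 179 against 58.1 RPKM in knockouts (-1.76 ± 0.72, adjusted p = 0.469). Eqtn, an acrosomal membrane gene, had -2.21 ± 0.73 in controls (adjusted p = 0.395) and -1.51 ± 0.73 in knockouts (adjusted p = 0.508). The third gene by p was Spaca3 in controls (-2.49 ± 0.90, adjusted p = 0.406) and Spaca1 in knockouts (-1.29 ± 0.64, adjusted p = 0.516). Without control library 1 the control differences were -1.39 for FIMP's gene (row 4930451I11Rik), -1.10 for Eqtn and -0.89 for Spaca3. Spaca1 also stands among the round spermatid markers.

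**Figure D4:**
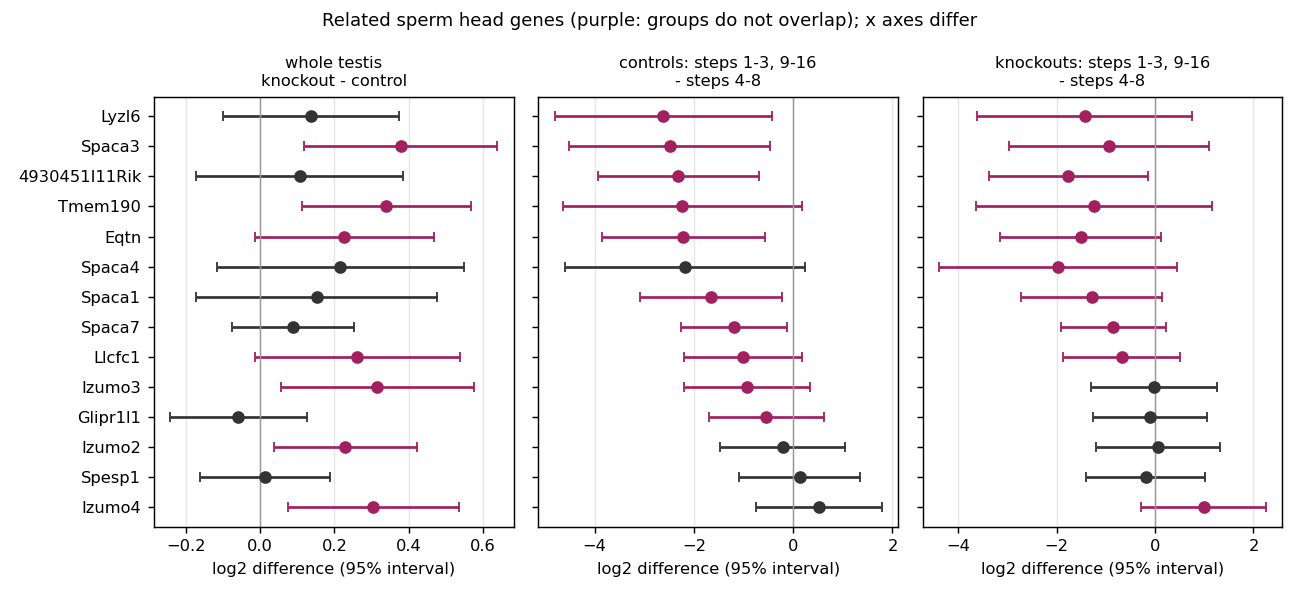
Differences in log2(RPKM + 1) with 95% intervals from limma for the 14 companion genes in whole testis and between captured regions, purple where the groups compared did not overlap, with x axes that differ between panels. In whole testis the values lie between -0.06 and 0.38, and between regions most lie below 0, with medians of -1.42 in controls and -0.89 in knockouts.

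The egg receptor for IZUMO1 and the founders of the DC-STAMP family were looked up in the same libraries. Izumo1r (row Folr4) had at most 1 read in any testis library, and 5 of 6 testis libraries had 0 reads. Dcstamp was at 0.002 to 0.012 RPKM in testis and Ocstamp at 0.0135 to 0.052 RPKM, while their relative Dcst1 was at 5.19 to 6.19 RPKM. Of the egg tetraspanins used in fusion, Cd9 was at 0.311 to 0.386 RPKM in testis and Cd81 at 2.69 to 5.21 RPKM. The captured libraries reached higher values, up to 35 reads of Izumo1r, 0.257 RPKM of Dcstamp, 0.249 RPKM of Ocstamp and 1.44 RPKM of Cd9, with 5 of 8 libraries at 0 reads of Izumo1r. Cd81 reached 4.07 RPKM there.

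Cd81 was the only one of these 5 genes tested. Its difference between genotypes in whole testis was 0.41 ± 0.14 (adjusted p = 0.105, and 0.53 with adjusted p = 0.036 without knockout replicate 1). Leaving out that replicate, the fit called 1129 of 7982 tested genes. In steps 4 to 8 Cd81 averaged 3.55 RPKM in knockouts and 0.405 RPKM in controls, 1.69 ± 0.40 with no overlap (unadjusted p = 0.002, adjusted p = 0.820). In the other region it averaged 1.76 against 1.82 RPKM (-0.01 in log2, and -0.34 without control library 1). In steps 4 to 8, Sertoli markers were at 41.0 to 62.5 RPKM summed in knockouts and 10.7 to 35.5 RPKM in controls, with 9 of 10 higher by mean and Amh without reads in all 4 libraries. Their part in the Cd81 values was not tested.

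A last list held 12 genes known in mouse for the folding, processing and quality control of sperm surface proteins, such as the chaperones Clgn and Calr3. In whole testis 9 were tested, none passed, and the median was 0.10 beside 0.09 over all genes. The smallest p belonged to Prss37 (0.51 ± 0.21, adjusted p = 0.162), Calr3 (0.33 ± 0.15, adjusted p = 0.186) and Cmtm2a (0.19 ± 0.11, adjusted p = 0.296). With the replicate number as a block, Prss37 passed (adjusted p = 0.036), as did 740 of 8146 tested genes. In captured tissue 10 were tested, none passed, and the medians between genotypes were -0.01 in steps 4 to 8 and 0.17 in the other region, where it was -0.06 without control library 1. Between regions the medians were 0.06 in controls (-0.14 without that library) and -0.16 in knockouts, where Rnase10 had the smallest p (2.07 ± 0.65, adjusted p = 0.399).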

How the data were processed

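RNA sequencing levels of the fusion genes were taken from a table that the authors deposited as log2 RPKM, with 1 value per gene symbol and library. The submitters' processing notes name mm10 as the build, with HISAT2 2.1.0, Trim Galore 0.4.0 and FastQC as tools. Per the labels' protocols, whole testis libraries came from a directional kit and captured ones from SMART-seq2. The sources used here do not name the counting tool or its annotation. The deposited log2 values were raised back to RPKM. The RPKM length was the gene span, and 0 reads had been entered as 0.9 read. Whole reads could be recovered, with 99.99% of values within 0.05 of a whole read.

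Tests were run with limma 3.58.1 (R 4.3.3) and took log2(RPKM + 1) with an intensity trend, were two-sided, Benjamini-Hochberg adjusted over all tested genes and called under 0.05. Fold changes on this scale understate changes of low genes. Whole testis and captured tissue (4 group means) were fitted separately, over genes that reached an RPKM of 1 in 3 or more testis libraries, or in 2 or more captured libraries. The plan had assumed RPKM as the deposited unit, and the test kept to it. Within whole testis, deviations of same-numbered control and knockout libraries correlated at 0.329, 0.362 and 0.148. Those of unlike number correlated at -0.442 to 0.299, the highest being control 3 with knockout 2. A pairing by number was thus not clear in the data, and the labels state none. In captured tissue same-numbered libraries correlated at -0.087 to 0.197. No replicate pair agreed within counting noise. The fits were tested on simulated data.

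The members and lists were chosen with earlier results of these data known. The genes named were Tsga8, the fusion genes, from each companion list every called gene or else the 3 with the smallest p, and the 3 genes most like each fusion gene by r, leaving out predicted genes and clone names. Genes matched by older symbols and the library that stands apart were noticed after the values were seen. Alternatives were other pseudocounts (0.1 and 4), no filter on low values, a common sum, median centring, quantile normalisation, limma-voom on recovered reads, a replicate block and leaving out each library.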

Additional observations from a re-analysis of the deposited data

How the results depend on the processing

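No fusion gene passed the test in any comparison under any alternative tried. Izumo1 in whole testis came closest, at an adjusted p of 0.0675 without control replicate 1 (range over alternatives 0.0675 to 0.746). Leaving out that replicate, the fit called 1466 of 7936 tested genes. Signs near 0 were not stable. In whole testis Spaca6 turned to -0.039 with a common sum, -0.041 with median centring and -0.037 with quantile normalisation. Under these same 3 settings Tmem95 turned to -0.091, -0.087 and -0.10, and to -0.051 with limma-voom, and Tmem81 turned to -0.064, -0.049 and -0.10. In captured tissue Izumo1 in steps 4 to 8 turned to 0.076 with a common sum. In the other region Spaca6 turned to 0.045 with a pseudocount of 0.1, and Dcst1 to -0.090 with a pseudocount of 4 and -0.10 with quantile normalisation.

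Leaving out 1 library at a time gave these lowest and highest values, in log2. In whole testis they were -0.048 and 0.15 for Spaca6, -0.13 and 0.19 for Tmem95, -0.052 and 0.15 for Tmem81, and -0.10 and 0.00018 for Dcst1. In steps 4 to 8 they were -0.60 and 0.42 for Izumo1, -2.84 and 0.045 for Tmem95, and -0.079 and 1.04 for Tmem81. In steps 1 to 3 and 9 to 16 they were -0.16 and 2.75 for Izumo1, -1.12 and 0.90 for Spaca6, -0.20 and 2.31 for Tmem95, -1.73 and 0.49 for Tmem81, and -1.13 and 1.26 for Dcst1. For the difference of the genotype differences they were -0.074 and 2.84 for Izumo1, -1.38 and 0.64 for Spaca6, -2.21 and 0.0071 for Tmem81, and -0.69 and 1.70 for Dcst1. For Tmem95 between regions in knockouts they were -0.34 and 2.54. Over all alternatives tried, Tmem95 ranged more widely, from -4.95 to 0.045 in steps 4 to 8. Between regions in knockouts it ranged from -0.34 to 4.48, and for the difference of the genotype differences from 1.01 to 6.83. The cause was not tested.

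The replicate block, with 740 calls over all genes in whole testis against 501 without it, changed no fusion gene's call, and Izumo1 had an adjusted p of 0.127 with it (0.21 in log2). In captured tissue the block called 0 genes. Some settings moved the median over all genes by over 0.1. With a common sum it was 0.13 in steps 4 to 8, 0.18 between genotypes in the other region and -0.08 between regions in controls. With limma-voom, over its own wider set of genes, it was -0.04 in whole testis and -0.10 between genotypes in steps 4 to 8. It was then 0.38 between regions in controls, 0.53 in knockouts and 0.18 for the difference of the genotype differences. Without knockout library 2 of steps 4 to 8 the last was 0.15. The limits are few libraries (2 a group in captured tissue), 1 captured control library with most fusion genes at low counts, and a scale that follows each library's composition.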
